A study of Mus musculus with 6 samples.

Results

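The 8 genes studied here act in the choice between the CD4 and CD8 T cell fates and were followed in leukemic bone marrow (BM). They were selected by symbol and are the coreceptor genes Cd4, Cd8a and Cd8b1, the lineage factor genes Zbtb7b, Runx3 and Runx1, the gene of their partner subunit Cbfb, and Satb1, 8 of the 54532 genes in the deposited table. All 8 had an FPKM (fragments scaled to gene length and library size) of 1 or more in 3 or more libraries, and so were among the 13393 genes tested. RNA came from flash-frozen BM cells of C57BL/6 mice, taken on day 100 after transplantation, with 3 libraries whose genotype label ends in WT (WT 1 to WT 3) and 3 in KO (KO 1 to KO 3). The labels name Phf6 in WT 1 and KO 1, Phf7 in WT 2 and KO 2, and Phf8 in WT 3 and KO 3. All were read as Phf6, the gene that the design text names for the whole series. In both groups the Lin- donor cells had received JAK3 M511I, a mutant that activates this Janus kinase, from a retrovirus, as a T-cell acute lymphoblastic leukemia model. By the study's methods, the control donors were Phf6 fl/y and the deleted donors also carried a Cre transgene. Cre was driven in hematopoietic cells by the Vav1 promoter (Vav1-Cre;Phf6 fl/y), the line whose RNA profiles the study describes. The methods also name Mx1-Cre for another model, and the labels name no Cre. Donors and recipients were male. The labels do not say whether GFP+ leukemic cells were sorted before RNA extraction, nor whether the 3 libraries of a group came from separate mice, so the p-values measure only the spread between these libraries.

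CD4 and CD8 are coreceptors that bind MHC class II and class I beside the T cell receptor. A thymocyte first expresses neither, then both (the double-positive stage), and then keeps 1 of them. Zbtb7b encodes ThPOK, which is required for the CD4 fate and restrains Runx3. Runx3 and Runx1 encode DNA-binding proteins that silence Cd4, in early thymocytes chiefly Runx1 and in CD8 T cells chiefly Runx3, and Cbfb encodes the subunit that both need to bind DNA. Satb1 encodes a chromatin organizer that acts on Cd4, Cd8, Zbtb7b and Runx3 during this choice.

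RUNX proteins bind a short core, and the start sites of the genes themselves show where it occurs. Windows of 300 bases (250 before and 50 after each RefSeq start site, GRCm38.p6) were found for 6 of the 8 genes, 13 windows in all, and Cd4 and Cd8b1 had no entry. The core was searched as TGTGGT on either strand (ACCACA on the other). It occurred in 3 of the 13 windows and in 16.76% of all 32851 windows of this length. The 3 windows are printed 5′ to 3′ on the strand of the gene, with the core in capitals.
Runx1, chr16:92826025-92826324, minus strand: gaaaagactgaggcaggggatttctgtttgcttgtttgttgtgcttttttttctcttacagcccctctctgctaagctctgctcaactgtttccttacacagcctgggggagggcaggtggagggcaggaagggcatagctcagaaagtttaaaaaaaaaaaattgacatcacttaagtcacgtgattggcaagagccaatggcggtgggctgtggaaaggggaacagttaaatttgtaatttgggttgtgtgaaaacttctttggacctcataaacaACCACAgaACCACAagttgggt
Runx3, chr4:135120395-135120694, plus strand: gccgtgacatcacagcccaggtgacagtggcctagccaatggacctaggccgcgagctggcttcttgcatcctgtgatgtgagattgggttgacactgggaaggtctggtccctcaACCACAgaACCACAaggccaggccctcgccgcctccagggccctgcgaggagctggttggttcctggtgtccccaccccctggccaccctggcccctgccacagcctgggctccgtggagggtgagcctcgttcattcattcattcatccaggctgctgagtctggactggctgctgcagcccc
Zbtb7b, chr3:89387622-89387921, minus strand: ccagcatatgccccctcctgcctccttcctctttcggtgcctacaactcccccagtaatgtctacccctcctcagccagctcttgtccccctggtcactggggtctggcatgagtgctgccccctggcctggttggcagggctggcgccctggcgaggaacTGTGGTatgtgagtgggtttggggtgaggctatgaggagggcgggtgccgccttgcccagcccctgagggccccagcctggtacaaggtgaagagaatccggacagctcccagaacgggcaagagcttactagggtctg
In the window of the upstream Runx1 start site the core occurred at 28 and 36 bases after the start, and in that of the upstream Runx3 start site at positions -134 and -126. The Zbtb7b window held 1 core. The upstream Runx1 and Runx3 windows shared a stretch of 18 bases, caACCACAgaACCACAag, with both cores in it. Only 3 of the 32851 windows held this stretch, 1 each of Runx1, Runx3 and Runx2. The single Cd8a window, the other windows of Zbtb7b, Runx1 and Runx3, the 5 of Satb1 and the 1 of Cbfb did not hold TGTGGT on either strand. No other form of the core was searched. A match is a description of the letters and not of binding.

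The libraries were not alike in content. Between 13015823 and 18235095 reads per library were recovered from the FPKM and gene lengths. WT 2 stood apart, with 17.1% of its reads in genes under 1000 bases, against 3.11% to 5.01% elsewhere, and 6.74% in those of 8000 bases or more, against 22.9% to 26.5%, so results are also given without it. The targeted gene did not separate the labels: Phf6 averaged 6.39 ± 2.37 FPKM with the WT and 5.78 ± 0.849 with the KO label (SD, n = 3 each; limma, adjusted p = 0.893). Values per gene cannot show a deletion of a few exons, and every direction below rests on the labels.

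Marker lists of blood cells moved with the labels. Cd3e, which defines T cells, was between 22.6 and 60.03 FPKM in all 6 libraries. The summed level of 10 T cell genes was 1200 to 3044 in the WT-labelled and 1232 to 1660 in the KO-labelled libraries. Of these 10 genes 0 were higher and 2 lower past the threshold, Trac and Cd5, against 13.1% and 13.3% of all genes. The groups did not overlap in 1 that was higher and 4 that were lower, against 49.1% of all genes. Of 10 genes of double-positive stage thymocytes 9 were higher and 0 lower past the threshold, and the sum of the 10 was 45.7 to 277 against 821 to 981. Cd24a, the gene of this list that did not pass, made up most of the WT-labelled sum, at 25.1 to 235 FPKM. Rag1, a defining gene of that list, was at most 1.71 FPKM in the WT-labelled libraries, with 0 in WT 3, and 338 to 457 in the KO-labelled ones. All 8 genes of cytotoxic CD8 T cells were lower past the threshold, with a sum of 1818 to 5284 against 20.3 to 53.7. Of helper CD4 T cell genes 4 of 8 could be tested, 1 higher and 1 lower, and the sum was 54.5 to 70.8 against 101 to 179. The gene called higher was Ctla4, at 18.1 to 40.6 FPKM against 91.7 to 167. The one called lower was Icos, at 9.32 to 16.4 against 3.83 to 5.12. Ctla4 alone made up most of the helper sum in the KO-labelled libraries, so it does not show the direction of the other genes. The median log2 fold change of the 4 tested helper genes was -1.06. The defining helper genes Cd40lg and Foxp3 were at most 1.62 FPKM in every library, and Cd40lg was listed at 0 in KO 2 and KO 3. All 10 genes of neutrophils, cells abundant in normal BM, were lower past the threshold, with a sum of 6674 to 93719 FPKM in the WT-labelled and 91.4 to 282 in the KO-labelled libraries. Monocyte and macrophage genes summed to 600 to 5046 against 13.3 to 28.2 (5 of 8 tested lower). NK cell genes summed to 138 to 216 against 566 to 617 (5 of 6 tested lower, 1, Gzma, higher). Gzma alone made up nearly all of the NK sum in the KO-labelled libraries, so this sum does not show the direction of the other NK genes. Conventional dendritic cell genes summed to 15.6 to 21.5 against 0.462 to 0.597 (1 tested, Itgax, lower). Itgax alone made up most of the WT-labelled sum, at 8.57 to 20.8 FPKM. The defining genes Zbtb46 and Xcr1 were at most 0.439 FPKM in every library. Zbtb46 was listed at 0 in KO 2 and KO 3 and Xcr1 in KO 2. Plasmacytoid dendritic cell genes summed to 43.4 to 314 against 105 to 201 (1 of 4 tested, Ccr9, higher). Bst2 alone made up most of this sum in every library, at 41.4 to 269 FPKM against 87.99 to 181. The sum thus does not show the direction of the other genes of this list. Siglech was 0.383, 15.9 and 0.0381 FPKM across WT 1 to WT 3 and listed at 0 in every KO-labelled library, so it was high in WT 2 only. In WT 2, B cell genes summed to 1074 and erythroid genes to 58689, against 1.10 to 17.2 and 15.7 to 473 in the other libraries, and 0 of 3 and 0 of 5 tested passed. The part of these differences in the results for the 8 genes was not tested, and in bulk RNA fewer cells of a type and less RNA per cell cannot be told apart.

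Of the 8 genes, Cd4 was higher and Zbtb7b lower past the threshold in the KO-labelled libraries, and the other 6 did not pass. Among all 13393 genes 13.1% were called higher (1754) and 13.3% lower (1785) by limma at an adjusted p of 0.05, so 1 of 8 in each direction is near the background. After rescaling to TPM the split over all genes was 2279 higher and 1081 lower, and with voom on the recovered reads 2011 and 1327. For the 8 genes it was 2 higher and 1 lower with TPM and 2 and 2 with voom. The median log2 fold change of the 8 genes was 0.48, and that of all genes 0.086. All-gene medians were 0.86 after TPM, 0.56 with voom, 0.24 after scaling to the Cd3 chains and 0.15 after quantile normalization, and relative to them each of the 8 genes kept its direction. The groups did not overlap in 3 of the 8 genes (Cd4, Cd8b1 and Zbtb7b), against 49.1% of all genes. Without WT 2, 5 of 8 passed, 2 higher and 3 lower, against 52.0% of all genes.

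**Figure D1:**
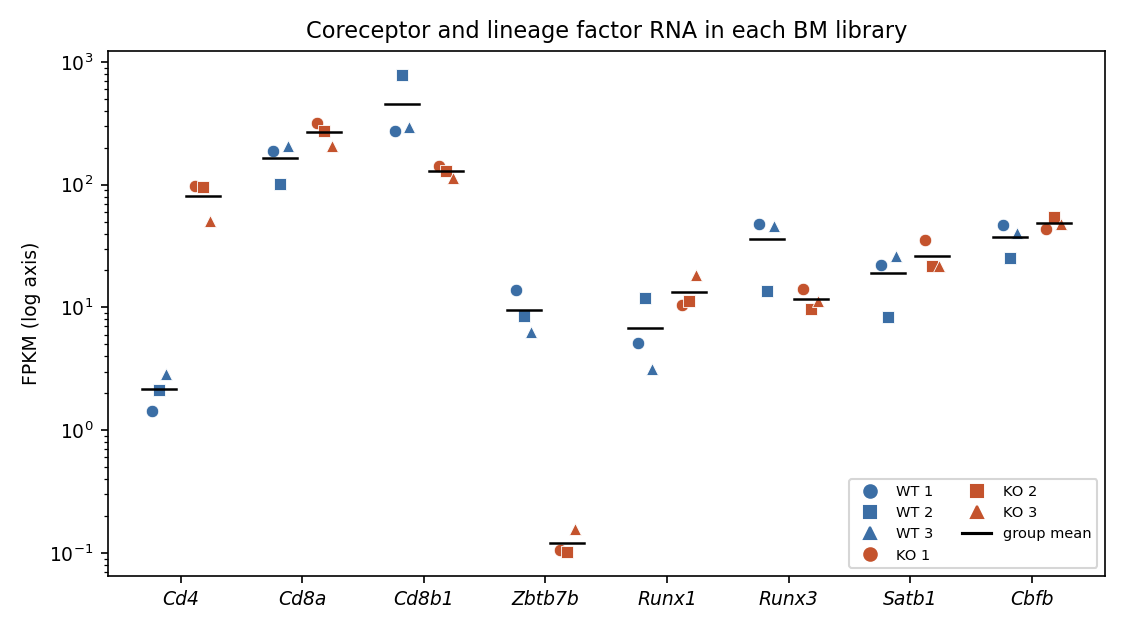
FPKM on a log axis of the 8 genes in each library, WT-labelled in blue and KO-labelled in orange, with the marker shape giving the replicate number and a bar at the group mean. The KO-labelled points of Cd4 (50.5 to 98.4) lie above and those of Zbtb7b (0.102 to 0.156) below all WT-labelled points. WT 2 (squares, blue) departs from the other WT-labelled libraries in Cd8a, Cd8b1, Runx1, Runx3, Satb1 and Cbfb.

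Cd4 (ENSMUSG00000023274, chromosome 6, 124864692 to 124888221, minus strand, GRCm38) was low in the WT-labelled and high in the KO-labelled libraries. Its FPKM was 1.45, 2.13 and 2.90 across WT 1 to WT 3 and 98.4, 95.3 and 50.5 across KO 1 to KO 3. The groups lay far apart, although KO 3 was well under KO 1 and KO 2. The means were 2.16 ± 0.725 and 81.4 ± 26.8 (SD, n = 3 each), a ratio of 37.7, and on the log2(FPKM + 1) scale Cd4 rose by 4.67 ± 0.35 (standard error; limma, adjusted p = 0.000415). Even in the WT-labelled libraries Cd4 rested on 90 to 181 reads. Among the FPKM of the genes tested it stood at percentile 14.6 to 30.04 there, and at 93.8 to 97.7 in the KO-labelled libraries. It passed the threshold under all 15 alternative settings, at 4.50 to 5.76. The listed genes of double-positive stage thymocytes, a stage that expresses Cd4, were also higher past the threshold, except Cd24a. Their summed FPKM was 45.7 to 277, most of it Cd24a, against 821 to 981, and their part in the result was not tested.

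Cd8a (ENSMUSG00000053977, chromosome 6, 71373427 to 71379173, plus strand), the CD8 alpha chain, was among the most abundant of the genes in both groups. Its FPKM was 189, 101 and 208 across WT 1 to WT 3 and 321, 272 and 207 across KO 1 to KO 3. KO 3 was level with WT 3, so the groups overlapped. Its log2 fold change of 0.72 had a 95% interval from -0.26 to 1.71 (limma, adjusted p = 0.251), and it was 0.40 without WT 2 (adjusted p = 0.163).

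Cd8b1 (ENSMUSG00000053044, chromosome 6, 71322788 to 71337494, plus strand), the CD8 beta chain, starts the same locus and ends 35933 bases before Cd8a. Its FPKM was 276, 788 and 293 across WT 1 to WT 3 and 141, 130 and 114 across KO 1 to KO 3. Each WT-labelled library lay above each KO-labelled one, and WT 2 stood well above WT 1 and WT 3. The Cd3 chains, which all T cells express, summed to 742 FPKM in WT 2 and to 175 to 292 in the other libraries. They did not move together: Cd3d and Cd3g were highest in WT 2, whereas Cd3e was lowest there (22.6 FPKM, against 42.7 to 60.03 elsewhere). The means were 452 ± 291 and 128 ± 13.9 (SD, n = 3 each). Its difference of -1.64 on the log2 scale (95% interval -2.81 to -0.46; limma, adjusted p = 0.0512) missed the threshold. It passed under 5 of 15 alternatives, without WT 2 at -1.15 (adjusted p = 0.00189; between 0.000468 and 0.183 over the alternatives).

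Within a library, ratios of FPKM do not depend on how the library was scaled, and they are given as a description. Cd4/Cd8a was 0.00765, 0.0211 and 0.0139 across WT 1 to WT 3 and 0.307, 0.350 and 0.244 across KO 1 to KO 3. Cd4 RNA was a trace beside Cd8a RNA in every WT-labelled library and a sizeable fraction of it in every KO-labelled one. Cd8b1/Cd8a was 1.46, 7.81 and 1.41 against 0.440, 0.476 and 0.549. Per length, the beta chain thus exceeded the alpha chain in each WT-labelled library and lay below it in each KO-labelled one. In recovered reads, not divided by length, the ratio was 0.594, 3.19 and 0.574 across WT 1 to WT 3. The beta chain then exceeded the alpha chain in WT 2 only, and still lay below it in each KO-labelled library. The mean log2 difference was 4.50 for Cd4/Cd8a and -2.37 for Cd8b1/Cd8a, which was -1.56 without WT 2. Cd8b1 has the shortest counted length of the 8 genes, 1483 bases, against 3637 for Cd8a, and WT 2 had more of its reads in short genes.

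**Figure D2:**
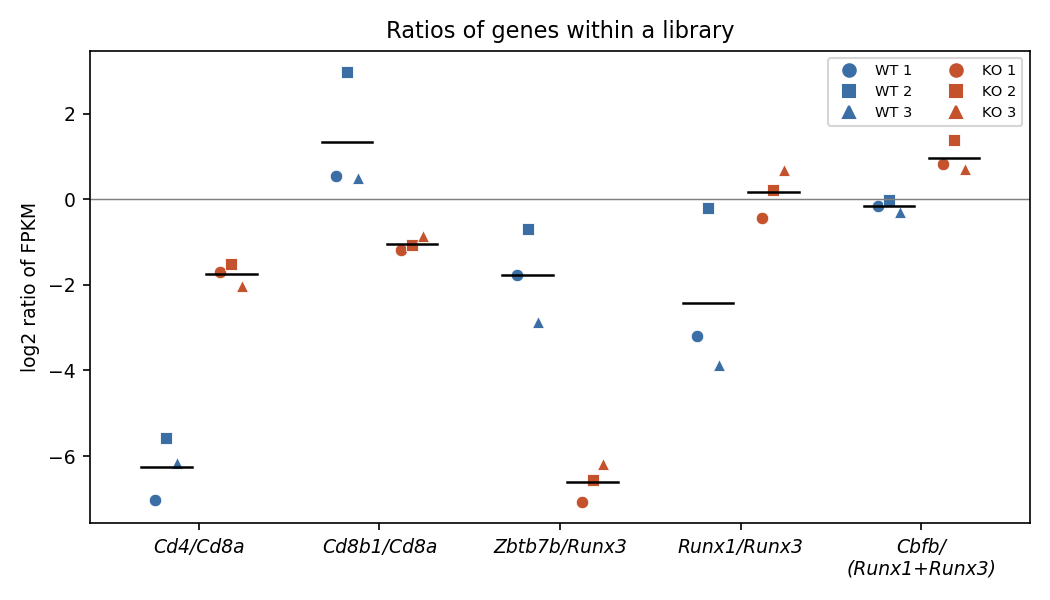
Log2 ratio of the FPKM of 2 genes within each library (vertical axis), WT-labelled in blue and KO-labelled in orange, with a bar at the group mean and a line at equal levels. Cd4/Cd8a and Cbfb/(Runx1+Runx3) are higher and Cd8b1/Cd8a and Zbtb7b/Runx3 lower in all 3 KO-labelled libraries, whereas Runx1/Runx3 overlaps through WT 2.

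Zbtb7b (ENSMUSG00000028042, chromosome 3, 89377644 to 89394776, minus strand), the gene of the CD4 lineage factor ThPOK, went the opposite way to Cd4. Its FPKM was 13.9, 8.44 and 6.30 across WT 1 to WT 3 and 0.106, 0.102 and 0.156 across KO 1 to KO 3. There were 1202, 555 and 546 reads in the WT-labelled and 11, 9 and 14 in the KO-labelled libraries, above a floor of 3 reads, which like all such limits covers counting error only. The means were 9.56 ± 3.93 and 0.121 ± 0.0298 (SD, n = 3 each), a 78.9-fold ratio. It fell by 3.17 ± 0.31 on the log2 scale (standard error; limma, adjusted p = 0.000958), which understates the fall of so low a gene. With a pseudocount of 0.1 in place of 1 it was -5.38. Zbtb7b passed under all 15 alternatives. Its level stood at percentile 48.5 to 70.1 of the genes tested in the WT-labelled libraries and at 3.29 to 4.26 in the KO-labelled ones. An antisense gene, Gm15417, shares 116 exon bases with it, and at most 1.78 FPKM were counted for that gene in any library. Where strand was not used in counting, reads in such shared bases cannot be told apart.

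Runx3 (ENSMUSG00000070691, chromosome 4, 135120652 to 135177990, plus strand) encodes the CD8 lineage factor. Its FPKM was 47.5, 13.7 and 46.3 across WT 1 to WT 3 and 14.1, 9.65 and 11.3 across KO 1 to KO 3. WT 1 and WT 3 were far above the KO-labelled libraries, whereas WT 2 lay just under KO 1. The difference of -1.36 on the log2 scale (95% interval -2.57 to -0.16; limma, adjusted p = 0.0967) missed the threshold. Without WT 2 it was -1.93 and passed (limma, adjusted p = 0.000571; between 3.50e-05 and 0.613 over the alternatives). It was -0.59 after TPM (adjusted p = 0.613) and -1.03 with voom (adjusted p = 0.296). The cytotoxic CD8 T cell genes, of a cell type that expresses Runx3, fell in the same libraries (summed FPKM 1818 to 5284 against 20.3 to 53.7), and their part was not tested.

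Runx1 (ENSMUSG00000022952, chromosome 16, 92601466 to 92826149, minus strand) encodes the related RUNX protein of early thymocytes. It measured 5.16, 11.9 and 3.15 across WT 1 to WT 3 and 10.4, 11.2 and 18.3 across KO 1 to KO 3. Again only WT 2 reached the levels of the other group. The difference of 1.01 on the log2 scale (95% interval -0.11 to 2.13; limma, adjusted p = 0.170) missed the threshold, whereas without WT 2 it was 1.46 and passed (limma, adjusted p = 0.00863; between 0.00198 and 0.421 over the alternatives). It also passed after TPM (1.91), with voom (1.57) and with array weights (1.23), and it was lowest without WT 3 (0.64, adjusted p = 0.336). Runx1 shares 106 exon bases with the antisense gene Gm26626, which was at most 3.20 FPKM.

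Set against each other, Runx1/Runx3 was 0.109, 0.872 and 0.0681 across WT 1 to WT 3 and 0.738, 1.16 and 1.62 across KO 1 to KO 3. Runx3 RNA exceeded Runx1 RNA per length in the 3 WT-labelled libraries and in KO 1. The mean log2 difference was 2.58, or 3.70 without WT 2, and the groups overlapped. Zbtb7b/Runx3 was 0.293, 0.618 and 0.136 against 0.00747, 0.0106 and 0.0138, a log2 difference of -4.82, with no overlap. Both genes of this ratio were lower on average in the KO-labelled libraries, Zbtb7b by more.

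Cbfb (ENSMUSG00000031885, chromosome 8, 105170674 to 105217989, plus strand), the shared partner subunit, stood at 46.8, 25.2 and 40.4 across WT 1 to WT 3 and 43.5, 54.1 and 48.2 across KO 1 to KO 3. The groups overlapped, and the log2 fold change was 0.41 with a 95% interval from -0.32 to 1.13 (limma, adjusted p = 0.380). Without WT 2 it was 0.15 (adjusted p = 0.424). Relative to the sum of Runx1 and Runx3 it lay apart: Cbfb/(Runx1+Runx3) was 0.890, 0.984 and 0.817 against 1.77, 2.59 and 1.63, with no overlap. The log2 difference of 1.13 was 0.68 when reads were not divided by gene length. Runx2 was not in this sum, at 3.70 to 10.4 FPKM in the WT-labelled and 3.62 to 12.8 in the KO-labelled libraries.

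Satb1 (ENSMUSG00000023927, chromosome 17, 51736187 to 51833290, minus strand), the chromatin organizer, reached 22.2, 8.43 and 26.5 across WT 1 to WT 3 and 35.1, 21.9 and 21.7 across KO 1 to KO 3. WT 2 was the lowest and KO 1 the highest, with the other 4 libraries close together. The log2 fold change of 0.55 (95% interval -0.55 to 1.65; limma, adjusted p = 0.433) was 0.08 without WT 2 (adjusted p = 0.805) and 0.33 without KO 1 (adjusted p = 0.741). Satb1 shares 156 exon bases with Gm36931 on the same strand and 128 with Gm6934 on the other, neither above 4.01 FPKM.

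The order of the levels per length differed between the groups. In the WT-labelled libraries the means ran from Cd8b1 and Cd8a through Cbfb, Runx3, Satb1, Zbtb7b and Runx1 to Cd4. Of neighbours in this order Cd8b1 and Cd8a, Cd8a and Cbfb, and Runx1 and Cd4 had ranges that did not overlap, and the other 4 pairs overlapped. In the KO-labelled libraries the order was Cd8a, Cd8b1, Cd4, Cbfb, Satb1, Runx1, Runx3 and Zbtb7b. There Cd4 and Cbfb, and Runx1 and Runx3, overlapped, and the other 5 pairs did not.

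**Figure D3:**
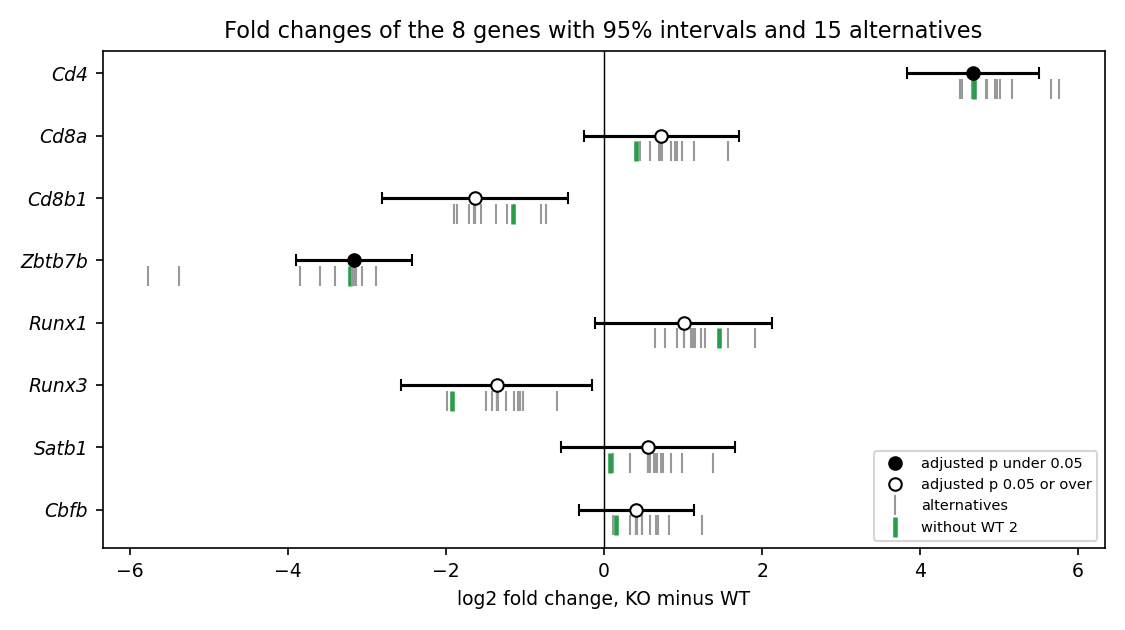
Log2 fold change (KO minus WT, horizontal axis) of the 8 genes with 95% intervals, filled where the adjusted p is under 0.05, with a tick for each of 15 alternative settings and a green tick for the fit without WT 2. No tick of any of the 8 genes lies on the other side of 0, and without WT 2 the value of Runx3 is -1.93 and that of Satb1 0.08.

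Other regulators of the choice were read from a list of 28 genes, all of which were tested. The list was chosen with earlier results of these data known, so its comparison with all genes is a description only. Of these, 9 were higher and 4 lower past the threshold, against 13.1% and 13.3% of all genes, and 15 did not pass. The median log2 fold change was 0.65, against 0.086 for all genes, and after TPM it was 1.49, against 0.86 for all genes, with 13 higher and 1 lower. The groups did not overlap in 13 genes that were higher and 4 that were lower of the 28, against 49.1% of all genes. The count past the threshold was 19 without WT 2, where 52.0% of all genes passed, and 7, 8 and 8 without KO 1, KO 2 and KO 3.

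Myb, a factor of immature blood cells that is needed for the CD4 fate, was 7.25, 12.7 and 3.06 FPKM across WT 1 to WT 3 and 82.6, 81.8 and 52.9 across KO 1 to KO 3. The rise was 3.22 in log2 terms (limma, adjusted p = 0.00423). Tcf12, which encodes the E protein HEB, a partner at the Cd4 enhancers, was 9.98, 1.81 and 11.9 FPKM across WT 1 to WT 3 and 70.8, 62.3 and 65.3 across KO 1 to KO 3. Its log2 fold change was 3.19 (limma, adjusted p = 0.00922). In both genes every KO-labelled library lay above every WT-labelled one. Stat5a, a transducer of cytokine signals, averaged 7.31 ± 1.69 and 27.3 ± 4.15 FPKM (SD, n = 3 each), 1.78 higher in log2 terms (limma, adjusted p = 0.00425). With Cd3 scaling its difference of 1.97 missed the threshold (adjusted p = 0.0869; between 4.82e-05 and 0.0869 over the alternatives). The other genes called higher were Tox, Themis, Patz1, Bcl11b, Smarca4 and Socs1. Themis is also in the list of double-positive stage thymocytes.

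Il7r, the IL-7 receptor whose signal favours the CD8 fate, was lower in each KO-labelled library. Its FPKM was 219, 73.8 and 227 across WT 1 to WT 3 and 16.8, 24.7 and 23.3 across KO 1 to KO 3. It fell by 2.80 in log2 terms (limma, adjusted p = 0.00757) and lost the threshold after TPM (-2.01, adjusted p = 0.123) and Cd3 scaling (-2.54, adjusted p = 0.108; between 3.40e-06 and 0.123 over the alternatives). Il2rg, the common chain of that receptor, had a mean of 131 ± 75.5 and 37.7 ± 2.83 FPKM (SD, n = 3 each; limma, adjusted p = 0.0299). It lost the threshold in 7 of 15 alternatives, among them without KO 1 (-1.65, adjusted p = 0.101), without KO 2 (-1.57, adjusted p = 0.120) and without KO 3 (-1.66, adjusted p = 0.101). Tle1, a corepressor that RUNX proteins recruit, was counted with 291, 137 and 298 reads across WT 1 to WT 3 and with 1, 0 and 1 across KO 1 to KO 3, the latter under the floor of 3 reads (limma, adjusted p = 0.00229). Zbtb7a, a relative of Zbtb7b, was the other gene called lower.

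**Figure D4:**
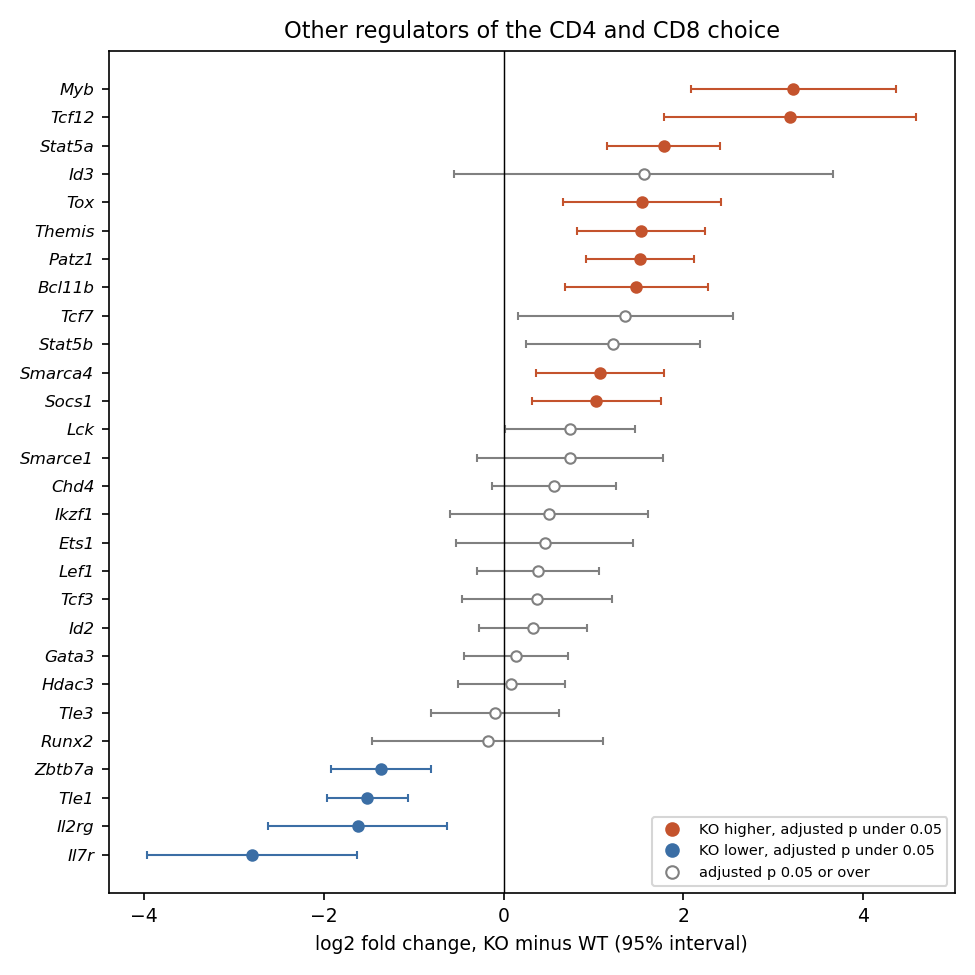
Log2 fold change (KO minus WT, horizontal axis) of 28 other regulators with 95% intervals, orange where higher and blue where lower with an adjusted p under 0.05, and grey otherwise. Myb and Tcf12 stand highest at 3.22 and 3.19, and Il7r lowest at -2.80.

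For the coreceptors, the protein-coding genes of most similar pattern over the 6 libraries were sought among 10380 candidates, by the root mean square difference of centred log2(FPKM + 1) values. Nearest to Cd4 were Atp8a2 (0.179), Chrna9 (0.311) and Sertad4 (0.327), where the median candidate was at 2.38. Atp8a2 was 0.286, 0.298 and 0.578 FPKM across WT 1 to WT 3 and 42.6, 33.2 and 23.5 across KO 1 to KO 3. Nearest to Cd8a were Kif3c (0.0716), Slc17a5 (0.0809) and Orc4 (0.0871), with a median of 0.690, and nearest to Cd8b1 were Tmem9b (0.0978), B3gat3 (0.108) and G6pc3 (0.112), with a median of 1.09. Because genes were picked by likeness to its pattern, the 3 nearest to Cd8b1 shared its highest level in WT 2.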

How the data were processed

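RNA of BM cells was sequenced by the authors as paired-end libraries on an Illumina NovaSeq instrument. The submitters' processing notes name HISAT2 2.0.5, featureCounts 1.5.0-p3 and GRCm38, and the strand setting is not given in the sources used here. The deposited values are FPKM per gene, together with the length and coordinates of the gene. The study used a model for counts, whereas the deposited unit calls for a test on a log scale. FPKM times length was a whole multiple of 1 read within 0.01 in 100% of values, so reads per gene were recovered. Deposited FPKM already carried a scaling, since their median-of-ratios factors were equal (1.019) in all 6 libraries.

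Genes reaching 1 FPKM in 3 or more libraries were compared as log2(FPKM + 1) with limma 3.58.1 (lmFit, eBayes with trend, two-sided) in R 4.3.3, with Benjamini-Hochberg adjustment over all 13393 genes and a threshold of 0.05. Groups came from the genotype labels, whose gene symbol (Phf6, Phf7 or Phf8) was read as Phf6 from the design text. No replicates agreed within sampling noise. The 8 genes, the 28 regulators and the marker lists were chosen with earlier results of these data known. All 8 genes are named, with the 3 regulators of largest rise and of largest fall past the threshold, the 3 nearest patterns of each coreceptor gene, Phf6 and the first 2 genes of a marker list. The values of 1 marker gene are not reported here. Further genes were picked with their values in view.

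Alternatives were a pseudocount of 0.1, no filter, TPM, median-of-ratios scaling, quantile normalization, voom on recovered reads, array weights, a replicate block, omission of each library in turn and, chosen after seeing the data, scaling to the summed FPKM of Cd3d, Cd3e and Cd3g. Gene coordinates equalled GENCODE M21 (GRCm38) for all 8 genes and for 53548 of 54495 genes matched by ID. Promoter windows are from RefSeq (GRCm38.p6). The model was tested on simulated data. Other software was Python 3.11.15 with NumPy 2.4.6, pandas 2.3.3 and Matplotlib 3.10.9, and data.table (1.17.8) in R.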

Additional observations from a re-analysis of the deposited data

How the results depend on the processing

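Each of the 8 genes kept its direction under all 15 alternatives, and Cd4 and Zbtb7b also kept their calls. The number of the 8 genes past the threshold was 2, and 4 with voom, 5 with array weights and 2 to 5 when 1 library was left out, the 5 without WT 2. Over all genes 3539 passed, against 8461 with array weights, 1924 with Cd3 scaling and 1934 to 6967 when 1 library was left out, again highest without WT 2. Of the 28 regulators 13 passed, against 20 with array weights, 3 with Cd3 scaling and 7 to 19 when 1 library was left out. Array weights gave WT 2 a weight of 0.0509. The log2 fold change of Phf6, -0.07, was 0.69 after TPM, 0.34 with voom, 0.065 with Cd3 scaling and -0.37 to 0.10 when 1 library was left out. The cause of these shifts was not tested.

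With the replicate block 2676 genes passed, 2 of the 8 genes and 10 of the 28 regulators, Il2rg being among those lost (adjusted p = 0.0633). Deviations of same-numbered libraries correlated at 0.0954, 0.105 and -0.153, so the numbers were taken as names only. With 3 libraries a group, intervals of the genes that did not pass are wide. In the KO-labelled libraries Zbtb7b and Tle1 rest on 14 reads or fewer, so counting error is large there.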

Other observations

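Genes next to the coreceptor loci, chosen by position after their values were seen, were also compared. Gpr162, 709 bases from the downstream end of Cd4, was 0.135, 0.399 and 0.185 FPKM across WT 1 to WT 3 and 10.4, 5.56 and 5.001 across KO 1 to KO 3, higher by 2.63 in log2 terms (limma, adjusted p = 0.00175). Lag3, 16140 bases from the other end of Cd4, encodes a relative of CD4 and did not pass (0.54; limma, adjusted p = 0.595). Rmnd5a, 9461 bases beyond Cd8a, was 16.4, 8.38 and 20.6 FPKM across WT 1 to WT 3 and 67.4, 65.7 and 53.3 across KO 1 to KO 3, higher by 2.05 in log2 terms (limma, adjusted p = 0.00779). Smyd1, 555 bases before Cd8b1, was at most 1.01 FPKM in the WT-labelled libraries and 1.64 to 6.92 in the KO-labelled ones (1.76; limma, adjusted p = 0.0307). Gpr162, Rmnd5a and Smyd1 were thus called higher and Lag3 was not, where 13.1% of all genes were called higher. Cd8a and Cd8b1, between Smyd1 and Rmnd5a, did not pass. Cd8b1 was lower in each KO-labelled library (limma, adjusted p = 0.0512). As these neighbours were picked with their values known, no conclusion on the loci is drawn.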
